A study of Mus musculus with 48 samples.

Results

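The expression response to trichostatin A at 10 nM was examined in STHdhQ111 cells, a conditionally immortalized line of mouse striatal progenitors that is homozygous for mutant huntingtin knocked into the mouse gene. The members were chosen by their sample labels: the 3 trichostatin A samples were compared with the 3 STHdhQ111 samples that received vehicle (DMSO), out of 48 samples in all. As a second control, the 3 STHdhQ111 samples with haloperidol at 0.5 nM were used, since they were collected in the same day and time slots as trichostatin A. Vehicle samples were collected on the same 3 days and at the same 3 times of day, but in no case was a vehicle sample in the same slot as a trichostatin A sample. All of these cells were kept for 24 hours in serum-free medium, and every group, controls included, carried the mutant allele. Fingolimod phosphate at 250 nM, again from the slots of trichostatin A, sodium butyrate at 1 mM, and vehicle-treated STHdhQ7 cells, the wild type line of the pair, are given only for reference. Each genotype is a single cell line, so that genotype and line cannot be told apart. The labels do not say whether the 3 samples of a group came from separate cultures beyond their collection days. The p-values therefore describe only the spread between samples within conditions, estimated for each gene over all 48 samples.

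Histone deacetylases remove acetyl groups from histone tails and from other proteins such as tubulin, and they act largely within corepressor complexes. Trichostatin A is a hydroxamic acid that chelates the zinc ion in the catalytic site of the class I and class II enzymes, and sodium butyrate is a short-chain fatty acid that inhibits class I enzymes. In many cultured cells, inhibitors of this kind raise histone acetylation within hours and shift many genes up and down, with the cell cycle inhibitor Cdkn1a and the linker histone H1f0 among the genes best known to rise.

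Values are the normalized log2 abundances of the deposited table, without read counts. Sequencing depth is therefore unknown, and no counting error can be given. Of 18178 genes with a symbol, 13409 had a mean of at least 1 over all samples and were tested with limma. A gene was called when its Benjamini-Hochberg adjusted p was under 0.05. The 24 genes with the largest changes among those that met further conditions, given below, are described sample by sample, followed by gene groups.

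Before the results, the identity of the samples was examined. The progenitor marker Vim was at 15.21 in trichostatin A, 15.42 in vehicle and 15.49 in haloperidol samples (means of 3 log2 values). Sox2 was at 4.73, 4.81 and 5.29 in the same order. Among markers of mature striatal projection neurons, the dopamine receptor Drd1 was at -2.18 in each group, close to the lowest value of the table, -2.34. Collagen genes usually seen in fibroblasts, Col1a1 and Col1a2, were at 14.52 and 12.80 in trichostatin A samples, and the leukocyte gene Ptprc was at 10.63. The microglial markers P2ry12 and Cx3cr1 were at -2.13 and -1.81. The cells therefore carried progenitor and mesenchymal transcripts and lacked defining transcripts of mature neurons and microglia, in treated and control samples alike.

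Haloperidol replicate 2 stood apart from every other STHdhQ111 sample. Over 25 genes that separate STHdhQ7 from STHdhQ111 vehicle samples by the widest gap, chosen without the compound samples, its mean log2 value was 6.49. The other haloperidol samples were at 4.83 and 4.96, trichostatin A samples at 5.08, 4.65 and 4.91, vehicle samples at 4.98, 4.70 and 4.62, and STHdhQ7 vehicle samples between 9.78 and 10.3. This library was the highest of 45 STHdhQ111 samples in 23 of the 25 genes. The source of this signal was not tested. Results that rest on the haloperidol control are therefore given with and without this library where it matters.

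**Figure D1:**
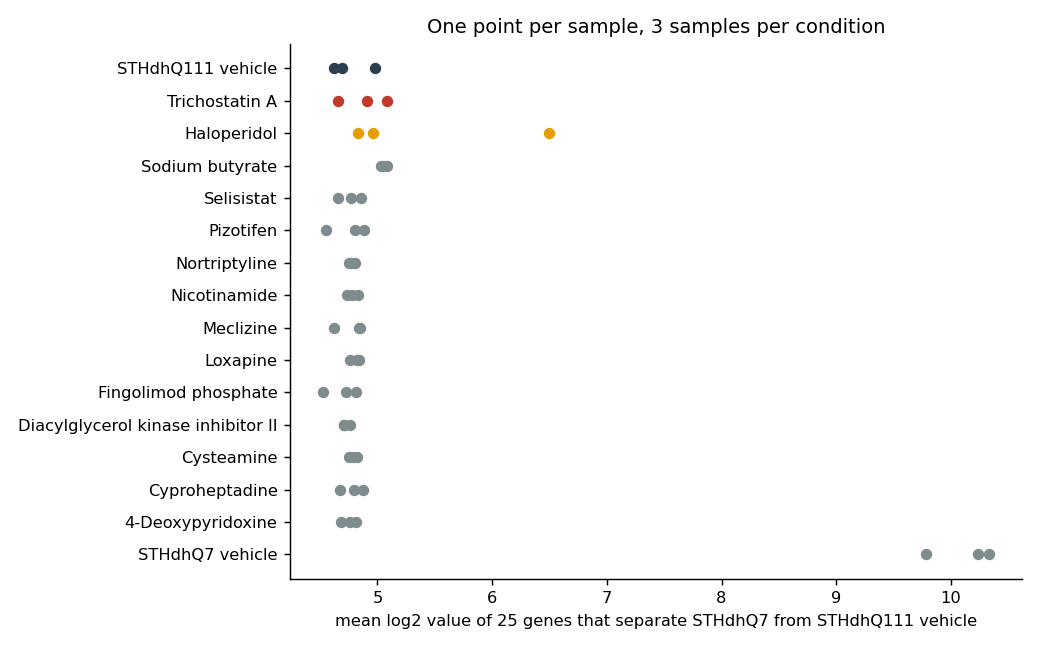
Mean log2 value (horizontal axis) of the 25 genes that separate the STHdhQ7 from the STHdhQ111 vehicle samples, by condition (vertical axis), with each sample as a point. Haloperidol replicate 2, at 6.49, lies above all other STHdhQ111 samples and below the STHdhQ7 samples, while trichostatin A samples, at 4.65 to 5.08, lie among the others.

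Against vehicle, 1755 of 13409 genes were called (13.1%), 859 higher (6.41%) and 896 lower (6.68%) with trichostatin A. At an unadjusted p under 0.05 there were 3598. The changes were small: the median absolute log2 fold change of called genes was 0.27, and 137 called genes moved by more than 0.5. Against haloperidol, 1492 genes were called (11.1%), 785 higher (5.85%) and 707 lower (5.27%), and without haloperidol replicate 2 there were 1033, 574 higher and 459 lower. The controls themselves did not differ in any called gene with limma (0 of 13409, and 397 at an unadjusted p under 0.05). Both comparisons share the trichostatin A samples, so they are not independent of each other. In both, with the same direction, 1122 genes were called (8.37% of those tested), 592 higher (4.41%) and 530 lower (3.95%), and no gene was called in opposite directions. This is 63.9% of the genes called against vehicle and 75.2% of those called against haloperidol. The median log2 fold change of all tested genes was 0.0043 against vehicle and 0.0041 against haloperidol.

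The number of calls rested strongly on single libraries. Without trichostatin A replicate 1, 744 genes were called against vehicle and 584 against haloperidol. Without vehicle replicate 1 the count against vehicle was 931, and without vehicle replicate 2 it was 1120. Against both controls, 417 genes were called without that treated library, trichostatin A replicate 1, in place of 1122. Of these 1122, 745 were still called in the same direction against vehicle without vehicle replicate 1, and 835 against haloperidol without haloperidol replicate 2. An exact permutation test of 3 against 3 samples of a single gene cannot give a p below 0.1, so single genes rest on the model fitted over all genes.

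Several of the largest apparent changes were particular to a control. The pseudogene entry Nutf2-ps2/Nutf2-ps1 was at 8.44, 8.48 and 8.13 in trichostatin A samples and at 7.01, 6.24 and 5.98 in vehicle samples, but at 8.26, 8.35 and 7.87 with haloperidol. Such near-identical copies share reads, so the value is uncertain. Against haloperidol, the smooth muscle actin gene Acta2 had the largest fall, of 1.86 on the log2 scale. Its values were 4.37, 4.26 and 4.49 with trichostatin A, 4.58, 4.57 and 4.56 with vehicle, and 4.75, 8.53 and 5.42 with haloperidol, so that the fall rests mainly on haloperidol replicate 2. Of the 25 genes that separate the lines, 8 were called lower with trichostatin A than with haloperidol, 1 without that replicate, and 0 against vehicle.

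The 24 leading genes were the 12 largest rises and 12 largest falls among genes called against both controls, with a mean of at least 6 and with the trichostatin A samples outside the range of each control. That these groups do not overlap is therefore part of the choice. The smallest rise among them, as the mean over both comparisons, was 0.613 and the next gene was at 0.605. The smallest fall was -0.585 and the next gene was at -0.581. All 24 were also called against fingolimod phosphate, where 1255 of the tested genes were called (9.36%). That comparison uses the same trichostatin A samples by which the 24 genes were chosen, so it is not independent support. Of the 1122 genes called against both controls, 700 were also called there in the same direction.

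The promoters of the leading pair of genes in each direction with an entry in the reference table are shown, because transcription, which the comparison measures by its product, begins there. Each run covers 250 bases before and 50 bases after an annotated transcript start on the gene's strand, from RefSeq on GRCm38.p6. Capitals mark matches on either strand to the GC box GGGCGG, to the CCAAT box or to the TATA box TATAAA. Pla2g7 lies at chr17:43568201-43568500 on the plus strand, L1cam at chrX:73880741-73881040, Cyp26b1 at chr6:84593761-84594060 and Svep1 at chr4:58206547-58206846, all 3 on the minus strand.
Pla2g7: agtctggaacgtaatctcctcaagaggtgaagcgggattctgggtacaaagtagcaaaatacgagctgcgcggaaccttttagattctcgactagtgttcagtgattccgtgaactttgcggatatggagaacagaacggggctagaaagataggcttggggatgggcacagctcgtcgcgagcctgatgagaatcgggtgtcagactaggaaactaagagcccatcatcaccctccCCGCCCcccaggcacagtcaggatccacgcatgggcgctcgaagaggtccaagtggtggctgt
L1cam: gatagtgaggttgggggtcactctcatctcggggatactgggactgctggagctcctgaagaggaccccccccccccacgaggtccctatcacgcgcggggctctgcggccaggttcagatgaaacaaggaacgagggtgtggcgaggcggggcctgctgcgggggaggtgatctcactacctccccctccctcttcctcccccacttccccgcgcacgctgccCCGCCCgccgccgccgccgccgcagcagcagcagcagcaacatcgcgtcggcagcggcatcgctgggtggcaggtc
Cyp26b1: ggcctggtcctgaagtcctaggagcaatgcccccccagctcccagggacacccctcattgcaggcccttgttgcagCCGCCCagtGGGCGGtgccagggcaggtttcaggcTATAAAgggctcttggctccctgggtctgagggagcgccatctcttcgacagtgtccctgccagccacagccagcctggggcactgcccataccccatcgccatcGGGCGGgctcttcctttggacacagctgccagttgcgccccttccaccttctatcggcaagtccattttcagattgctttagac
Svep1: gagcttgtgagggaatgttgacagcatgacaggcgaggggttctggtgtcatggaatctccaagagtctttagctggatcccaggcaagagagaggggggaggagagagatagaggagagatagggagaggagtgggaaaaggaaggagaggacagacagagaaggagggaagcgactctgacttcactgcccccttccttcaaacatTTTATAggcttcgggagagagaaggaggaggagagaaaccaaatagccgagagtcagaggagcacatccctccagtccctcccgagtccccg
Pla2g7 and L1cam each held 1 GC box and no TATA box. Cyp26b1 held 3 GC boxes and 1 TATA box, and Svep1 held 1 TATA box and no GC box. No CCAAT box was in these windows, and no match overlapped another. L1cam has 2 entries in the table, both starting 15.3 kb inside the annotated gene, and the entry not printed lies 44 bases upstream and held 2 GC boxes and 1 CCAAT box. Among 27025 promoters of the same length, 35.9% held the GC box, 37.9% the CCAAT box and 14.2% the TATA box on either strand. Among the promoters of the tested genes these shares were 64.5%, 39.3% and 7.25%. These are matches of letters only.

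Among the risen leading genes, the largest changes were those of Pla2g7, L1cam and Uchl1. Pla2g7, a secreted phospholipase that inactivates platelet-activating factor, lies on chromosome 17 (GRCm38, 43568098 to 43612201, plus strand) and was at 6.88, 6.59 and 6.65 with trichostatin A. It was at 5.58, 5.65 and 5.80 with vehicle and at 5.56, 5.90 and 5.68 with haloperidol. All 3 treated samples lay above all 6 controls, with log2 fold changes of 1.03 ± 0.10 (SE) against vehicle (adjusted p = 3.4e-09) and 0.99 ± 0.10 against haloperidol (adjusted p = 9.4e-09). L1cam, an adhesion molecule of growing axons on chromosome X (73853778 to 73896105, minus strand), was at 8.19, 7.64 and 7.83 with trichostatin A, 6.98, 6.71 and 6.86 with vehicle, and 6.97, 7.07 and 7.0 with haloperidol. The rise was 1.04 ± 0.17 against vehicle (adjusted p = 4.2e-05) and 0.87 ± 0.17 against haloperidol (adjusted p = 0.00049). L1cam overlaps the annotated gene Arhgap4 on the same strand. Uchl1, a ubiquitin hydrolase abundant in neurons, was at 8.84, 8.33 and 8.47 with trichostatin A, 7.47, 7.52 and 7.69 with vehicle, and 7.62, 7.64 and 7.66 with haloperidol. Its rise of 0.98 ± 0.10 and 0.91 ± 0.10 (adjusted p = 6.9e-08 and 2.9e-07) was again seen in each treated sample. In all 3 genes, replicate 1 was the highest treated sample.

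The other risen genes changed by 0.55 to 0.76 against vehicle. Gsta4, a glutathione transferase for lipid peroxidation products, was at 8.39, 8.02 and 8.01 with trichostatin A and at 7.30 to 7.46 in the 6 controls. Serpini1, the protease inhibitor neuroserpin, was at 7.85, 7.47 and 7.48 against 6.80 to 6.99. Both were separated from the controls by more than the range of the controls. Tspan7, a tetraspanin of synapses, was at 7.21, 6.96 and 7.14 with trichostatin A, 6.41, 6.33 and 6.32 with vehicle and 6.30, 6.70 and 6.49 with haloperidol, where the highest control was replicate 2. Aplp1, a relative of the amyloid precursor protein, was at 7.09, 6.79 and 6.89 against 6.07 to 6.43 in the controls. Ndrg2 (0.72 ± 0.10 against vehicle), Fbxo2, an F-box protein that binds glycoproteins (0.59 ± 0.13), and Lrp11 (0.70 ± 0.08) completed this set of rises with adjusted p of 0.0019 or less against vehicle. Trichostatin A replicate 1 was the highest of the 9 samples in 10 of the 12 risen genes.

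In the remaining 2 risen genes, replicate 2 was the highest sample. Aldh1l2, a mitochondrial enzyme of folate metabolism, was at 8.69, 9.45 and 8.61 with trichostatin A and at 8.07 to 8.33 in the controls. Its rise of 0.71 ± 0.15 against vehicle (adjusted p = 0.00086) became 0.43 without replicate 2 (adjusted p = 0.029). Stbd1, a glycogen-binding protein, was at 6.95, 7.41 and 6.69 against 6.29 to 6.49. Its rise against vehicle was 0.55 ± 0.12 (adjusted p = 0.0019), and without replicate 2 it was 0.34 and did not pass (adjusted p = 0.054). Both genes had higher condition means in other compounds than with trichostatin A, reaching 10.69 for Aldh1l2 and 8.29 for Stbd1.

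Among fallen genes, Peg10, an imprinted gene derived from a retrotransposon on chromosome 6 (4747306 to 4760517, plus strand), was at 11.23, 11.15 and 11.39 with trichostatin A. It was at 12.46, 12.07 and 12.14 with vehicle and 12.25, 12.22 and 12.42 with haloperidol. The difference was -0.97 ± 0.15 against vehicle (adjusted p = 2.2e-05) and -1.04 ± 0.15 against haloperidol (adjusted p = 1.1e-05), and treated and control samples were separated by more than 0.6. Cyp26b1, which degrades retinoic acid, was at 7.21, 7.37 and 7.56 with trichostatin A against 8.30, 8.18 and 8.30 with vehicle and 8.46, 8.24 and 8.43 with haloperidol. It fell by 0.88 and 1.00 on the log2 scale (SE 0.17 each, adjusted p = 0.00056 and 0.00013). Svep1, a large matrix protein, was at 8.70, 8.76 and 8.81 against 9.72, 9.47 and 9.49 with vehicle and 9.52, 9.48 and 9.54 with haloperidol. It changed by -0.81 ± 0.11 and -0.76 ± 0.11 (adjusted p = 3.6e-06 and 1.1e-05). The treated samples of Svep1 lay within 0.11 of each other.

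Cdkn1a, which encodes the cyclin-dependent kinase inhibitor p21, was among the fallen genes. It was at 9.05, 9.42 and 9.27 with trichostatin A, 9.91, 9.75 and 9.82 with vehicle, and 10.06, 9.90 and 9.80 with haloperidol. The change was -0.58 ± 0.11 against vehicle (adjusted p = 0.00041) and -0.68 ± 0.11 against haloperidol (adjusted p = 6.5e-05). Every treated sample lay below every control, and the mean was the lowest of the 15 STHdhQ111 conditions. Sodium butyrate came next, at -0.46 from vehicle, and was not tested against trichostatin A. The 12 compounds other than trichostatin A and sodium butyrate had condition means of 9.82 to 10.29.

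The other fallen genes changed by -0.71 to -0.54 against vehicle. Mest, another imprinted gene, was at 7.90, 7.67 and 7.59 with trichostatin A against 8.24 to 8.45 in the controls, and it overlaps Copg2 on the other strand. Sulf2, which trims heparan sulfate, was at 9.28, 9.38 and 9.44 against 9.92 to 10.21. Efnb2, a membrane-bound ephrin ligand, was at 8.43, 8.45 and 8.51 against 8.92 to 9.16. In each of these, treated and control samples were separated. Fbn2 (a fibrillin of elastic microfibrils) changed by -0.71 ± 0.10 against vehicle, Dlk2, a relative of the Notch ligands, by -0.71 ± 0.14, Psmb10, a subunit of the immunoproteasome, by -0.66 ± 0.15, the water channel Aqp1 by -0.64 ± 0.15, and Angptl4, an inhibitor of lipoprotein lipase, by -0.56 ± 0.12. Their adjusted p ranged from 7e-06 to 0.0033. Trichostatin A replicate 1 was the lowest of the 9 samples in 8 of the 12 fallen genes.

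**Figure D2:**
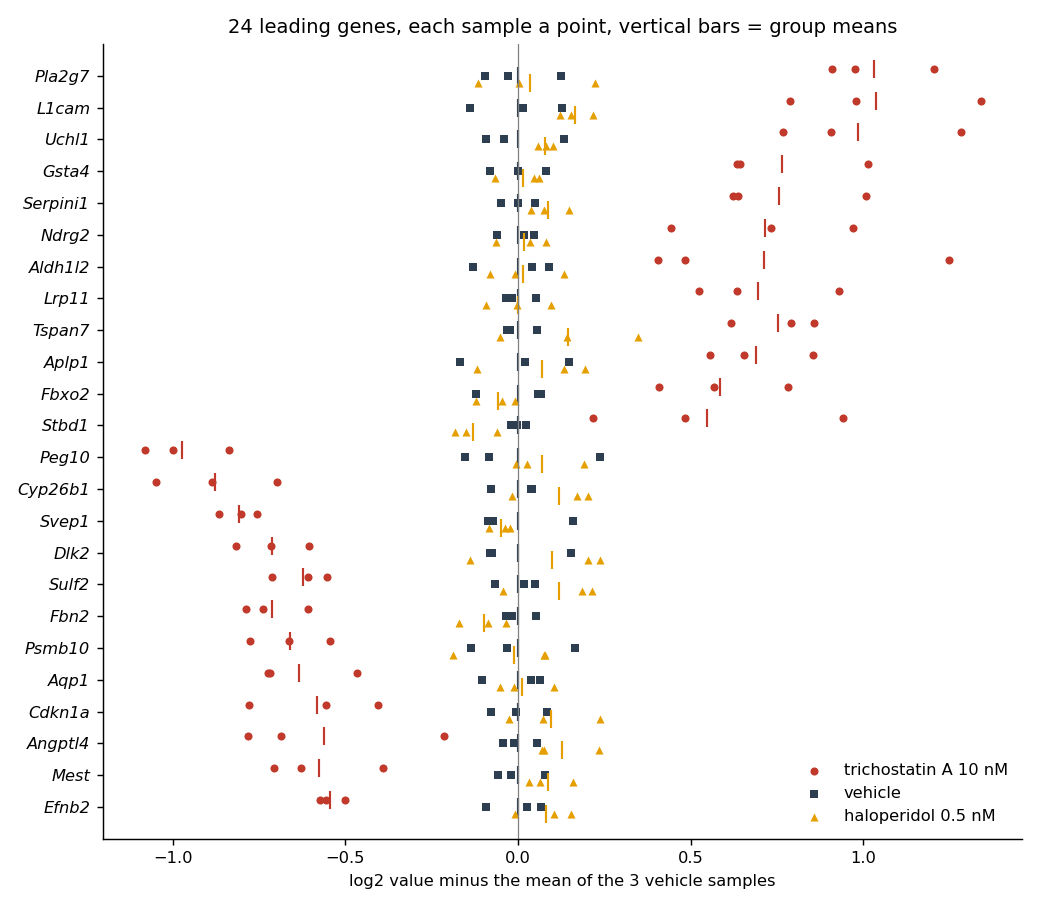
Log2 value of each sample minus the mean of the 3 vehicle samples (horizontal axis) for the 24 leading genes (vertical axis), with trichostatin A as circles, vehicle as squares, haloperidol as triangles and group means as vertical bars. The trichostatin A samples lie outside both controls for each gene, as the choice requires, and spread most for Aldh1l2 and Stbd1, where replicate 2 is the highest.

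The transcripts of the enzymes that trichostatin A inhibits moved little. Of 11 genes of class I, II and IV deacetylases, 0 were called higher and 2 lower against vehicle, and 0 higher and 2 lower against haloperidol. Over all tested genes, 6.41% were called higher and 6.68% lower against vehicle, and 5.85% and 5.27% against haloperidol. These shares are the background for each gene group below. Hdac7, a class II enzyme, was called in both. It was at 9.31, 9.29 and 9.35 with trichostatin A, 9.48, 9.58 and 9.50 with vehicle, and 9.53, 9.57 and 9.52 with haloperidol, changes of -0.20 ± 0.05 (adjusted p = 0.0031) and -0.23 ± 0.05 (adjusted p = 0.0013). Hdac1, the class I enzyme, was lower than vehicle by -0.20 ± 0.05 (adjusted p = 0.0085) but differed from haloperidol by only -0.07 ± 0.05 (adjusted p = 0.44), and the call against vehicle was lost without trichostatin A replicate 2 (adjusted p = 0.068). Hdac9 was at 3.05, 3.20 and 3.09 with trichostatin A, 3.27, 3.23 and 3.27 with vehicle, and 3.29, 3.93 and 3.24 with haloperidol. Its call against haloperidol (-0.37, adjusted p = 0.013) came to -0.14 without haloperidol replicate 2 (adjusted p = 0.32), and it was also lost without trichostatin A replicate 1 (adjusted p = 0.076). Hdac2, another class I enzyme, was at 10.31, 10.35 and 10.34 against 10.18 to 10.27 in the controls, above all of them, and its difference of 0.11 ± 0.06 from vehicle did not pass (adjusted p = 0.21). The median log2 fold change of the 11 genes was -0.08 against vehicle and -0.03 against haloperidol.

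Among partners of these enzymes, more were called lower than higher. Of 26 corepressor subunits, 0 were called higher and 5 lower against vehicle, and 1 higher and 2 lower against haloperidol. All tested genes were called lower in 6.68% and 5.27% of cases, so the count against haloperidol was near that share. The medians of this list were -0.06 and -0.02. Of 13 histone acetyltransferases, 0 were called higher and 2 lower against vehicle, and 1 lower against haloperidol, again near the share of all genes. Kat6a was at 9.57, 9.65 and 9.66 with trichostatin A, 10.13, 10.07 and 9.88 with vehicle and 9.88, 9.84 and 9.97 with haloperidol, changes of -0.40 ± 0.07 (adjusted p = 4.9e-05) and -0.27 ± 0.07 (adjusted p = 0.0055). The call of Kat6a against haloperidol was lost without trichostatin A replicate 1 (adjusted p = 0.058) or haloperidol replicate 3 (0.050). Leaving out single libraries left 1 to 5 corepressor subunits called lower against vehicle and 0 to 3 against haloperidol, the fewest without trichostatin A replicate 1. Of 8 genes for readers of acetylated lysine and for the elongation factor P-TEFb, Brd2 was called lower in both comparisons. Its treated samples were at 11.04, 11.09 and 11.02 and all controls between 11.23 and 11.24, a difference of -0.18 ± 0.04 (adjusted p = 0.0030 against vehicle and 0.0038 against haloperidol).

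The genes known to respond to deacetylase inhibitors did not move one way. Of 21 such genes, 5 were called higher and 5 lower against vehicle, and 4 higher and 5 lower against haloperidol, with medians of -0.09 and -0.11. The linker histone H1f0 was at 12.06, 11.60 and 11.72 with trichostatin A, 11.30, 11.40 and 11.54 with vehicle, and 11.32, 11.33 and 11.39 with haloperidol. Its rise was 0.38 ± 0.09 against vehicle (adjusted p = 0.0029) and 0.45 ± 0.09 against haloperidol (adjusted p = 0.00060), with the first of these lost without trichostatin A replicate 1 (adjusted p = 0.10). Clu, the extracellular chaperone clusterin, was at 6.00, 5.77 and 5.56 against 5.18 to 5.38, a rise of 0.54 ± 0.08 and 0.48 ± 0.08. Glul, glutamine synthetase, rose by 0.22 ± 0.06 and 0.30 ± 0.06. On the other side, Tgfbr2, a receptor of transforming growth factor beta, was at 11.968, 11.999 and 12.163 against 12.52 to 12.56, a fall of 0.51 and 0.50 on the log2 scale (adjusted p = 1.6e-05 and 2.9e-05). Gsn, the actin-severing protein gelsolin, was at 12.83, 12.72 and 12.83 against 13.02 to 13.16. The call of Gsn was lost without trichostatin A replicate 2 (adjusted p = 0.093 against vehicle and 0.085 against haloperidol), without vehicle replicate 3 (0.082) and without haloperidol replicate 1 or 3 (0.070 and 0.065). That of Glul against vehicle was lost without trichostatin A replicate 1 (0.12) or vehicle replicate 2 (0.078). Single left-out libraries left 2 to 5 of the 21 genes called higher and 3 to 5 lower against vehicle, and 3 to 5 higher and 2 to 5 lower against haloperidol. Metallothioneins Mt1 and Mt2, Txnip, Bdnf and Hexim1 were not called in either comparison, and the treated samples of Mt2 (11.64, 11.37 and 11.31) overlapped those of vehicle (11.00, 11.39 and 11.60). For Bdnf, which encodes a neurotrophic factor of striatal neurons, the 95% confidence interval of the difference from vehicle was -0.25 to 0.08.

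**Figure D3:**
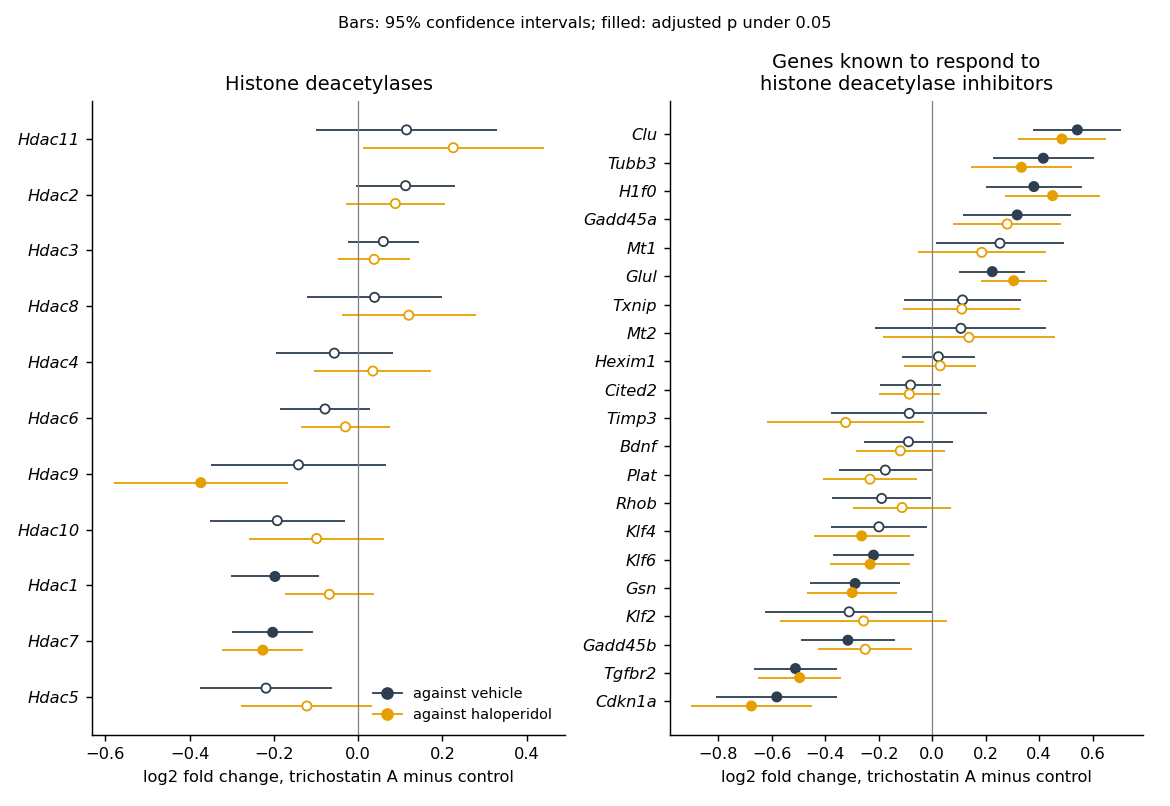
Log2 fold change of trichostatin A against vehicle (dark) and against haloperidol (orange), with 95% confidence intervals, for 11 deacetylase genes (left) and 21 genes known to respond to their inhibitors (right), with filled points for adjusted p under 0.05. Clu, Tubb3, H1f0 and Glul lie above 0 and Cdkn1a, Tgfbr2, Gsn and Klf6 below 0 in both comparisons, while most deacetylases have open points within 0.25 of 0.

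Replication-independent histone genes rose in part. Of 8 tested, 2 were called higher and 0 lower in each comparison: H1f0, given above, and H2afz, a variant histone of promoters. H2afz was at 12.42, 12.27 and 12.24 with trichostatin A, 11.92, 12.07 and 12.19 with vehicle, and 12.004, 11.925 and 11.959 with haloperidol. The treated samples were above all controls, by 0.25 ± 0.07 (adjusted p = 0.011) and 0.35 ± 0.07 (adjusted p = 0.00052). Without trichostatin A replicate 1 neither histone was called against vehicle, and H2afz was not called without vehicle replicate 1 either (adjusted p = 0.13 and 0.14).

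Among cyclin-dependent kinase inhibitors and targets of p53, the stress-responsive tumour suppressor, most members were not called. Of 18 tested, 1 was called higher and 5 lower against vehicle, and 0 higher and 7 lower against haloperidol, where the background was 5.27% lower. Beside Cdkn1a, the fallen members were Ccng1, a p53-induced cyclin, Trp53inp1, Aen and Cdkn2b. Ccng1 was at 10.14, 10.56 and 10.51 with trichostatin A, 10.92, 10.87 and 10.75 with vehicle, and 10.94, 10.89 and 10.80 with haloperidol. It changed by -0.44 ± 0.09 (adjusted p = 0.0013) and -0.47 ± 0.09 (adjusted p = 0.00072). Trp53inp1 changed by -0.35 and -0.47, Aen by -0.28 and -0.32, and Cdkn2b, which encodes the inhibitor p15, by -0.31 in both. The median of the list was -0.16 against vehicle and -0.21 against haloperidol. Without trichostatin A replicate 1, 2 members were called lower against vehicle and 3 against haloperidol, and Ccng1 was not called against vehicle (adjusted p = 0.052). Without replicate 2 there were 7 and 8, without vehicle replicate 1 there were 3 against vehicle, and without haloperidol replicate 1 there were 4 against haloperidol. The member called higher, Gadd45a, was at 8.30, 8.90 and 8.33 against 8.15 to 8.28 in the controls, and its difference of 0.32 from vehicle was 0.11 without replicate 2 (adjusted p = 0.46).

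Cell cycle genes changed in few members. Of 30 DNA replication genes, 0 were called against vehicle in either direction, and 3 were called higher against haloperidol. Of 25 mitosis genes, 2 were called higher against vehicle and 4 against haloperidol, and 0 lower. All tested genes were called higher in 6.41% and 5.85% of cases, so the count against vehicle was near that share. Ube2c, which charges ubiquitin for the anaphase-promoting complex, was at 9.66, 9.54 and 9.74 against 9.29 to 9.47. Cdk1, the mitotic kinase, was at 11.18, 11.02 and 11.14 against 10.83 to 11.01. The treated samples were above all controls in both, by 0.26 ± 0.07 and 0.20 ± 0.06 against vehicle (adjusted p = 0.013 and 0.024). Both calls were lost against vehicle without trichostatin A replicate 1 (adjusted p = 0.060 for Ube2c and 0.16 for Cdk1) and without vehicle replicate 1 (0.065 and 0.17). No mitosis gene was called against vehicle without trichostatin A replicate 1 or 3 or vehicle replicate 1 or 2, and 5 were called without trichostatin A replicate 2. Against haloperidol, 1 to 5 were called when single libraries were left out, with 1 without trichostatin A replicate 3 or haloperidol replicate 3.

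Neuronal genes that the repressor REST silences in other cells were tested in 11 of 24 cases, since the others had low values or no entry. Of these, 4 were called higher and 1 lower against vehicle, and 4 higher and 0 lower against haloperidol. The background was 6.41% and 5.85% higher. The 4 risen genes were Stmn2, L1cam, Syn1 and Tubb3. Stmn2, a tubulin-binding protein of neurons, was at 4.86, 4.14 and 4.52 with trichostatin A and at 3.47, 3.33 and 3.27 with vehicle, a rise of 1.15 ± 0.14 (adjusted p = 4.9e-07). With haloperidol it was at 3.32, 4.32 and 3.41, so that replicate 2 overlapped the treated samples. The difference was 0.82 ± 0.14 with that replicate and 1.16 without it (adjusted p = 2.1e-09). Syn1, a synaptic vesicle protein, was at 4.38, 4.04 and 4.27 against 3.39 to 3.73 in the controls, a rise of 0.67 and 0.68. The 4 rises became 3 without trichostatin A replicate 1 in both comparisons and without haloperidol replicate 3, where Tubb3 was not called. L1cam, Stmn2 and Tubb3 of this list were also higher in STHdhQ7 than in STHdhQ111 vehicle cells, by 1.75, 2.15 and 1.19. The difference of Syn1 between the lines is not given here. Of the 12 risen leading genes, Gsta4 (-0.19), Serpini1 (-0.18) and Aplp1 (-0.92) were lower in STHdhQ7 cells. The others were higher, among them Tspan7 by 1.75. The means of the 25 genes that separate the lines were 4.65 to 5.08 in the treated and 4.62 to 4.98 in the vehicle samples. The highest treated value belonged to replicate 1. This replicate was also the highest treated sample for L1cam, Stmn2, Tubb3 and Tspan7, and likewise for Gsta4, Serpini1 and Aplp1. The part of any line difference in these rises was not tested.

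Tubulins, whose acetylation is controlled by Hdac6, rose in a few members. Of 16 tubulin genes and genes of tubulin acetylation, 5 were called higher and 0 lower against vehicle, and 3 higher and 0 lower against haloperidol. The background was 6.41% and 5.85% higher. Tubb3, the neuronal tubulin, was at 5.22, 4.82 and 4.77 with trichostatin A, 4.53, 4.45 and 4.58 with vehicle, and 4.59, 4.69 and 4.54 with haloperidol. It rose by 0.41 ± 0.09 (adjusted p = 0.0023) and 0.33 ± 0.09 (adjusted p = 0.016). Tuba4a rose by 0.23 and 0.31 and Tubb4a by 0.20 and 0.23. Tubulin genes share reads between near-identical members, so single members are uncertain. Without trichostatin A replicate 1, 0 members were called against vehicle and 1 against haloperidol, and without vehicle replicate 1 or 2 there were 2 against vehicle. Without trichostatin A replicate 2, 6 were called against haloperidol. Hdac6 itself differed by -0.08 ± 0.05 from vehicle (adjusted p = 0.36).

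Collagens and other matrix genes lay mostly below the controls. Of 27 tested, 1 was called higher and 5 lower against vehicle, with a median of -0.19. Against haloperidol, 0 were called higher and 9 lower, with a median of -0.24. The background was 6.68% and 5.27% lower. The members called lower in both were Timp2, Thbs1, Col6a1, Col5a1 and Mmp14. Timp2, an inhibitor of metalloproteinases, was at 13.21, 13.25 and 13.35 with trichostatin A against 13.62 to 13.72 in the controls (-0.41 ± 0.06 against vehicle, adjusted p = 1.7e-05). Thbs1, the adhesive glycoprotein thrombospondin, was at 14.37, 14.15 and 14.35 against 14.69 to 14.94 (-0.47 ± 0.14, adjusted p = 0.020). Trichostatin A replicate 2 was the lowest of the 9 samples in 17 of the 27 genes, and without it 1 gene was called lower against vehicle and 2 against haloperidol. Leaving out vehicle replicate 1 left 1 and vehicle replicate 3 left 2, leaving out haloperidol replicate 3 left 3 against haloperidol, and without trichostatin A replicate 1 there were 3 and 4. Without trichostatin A replicate 3 there were 8 and 9. Thbs1 lost its call against vehicle without trichostatin A replicate 2 (adjusted p = 0.11) or vehicle replicate 1 or 2 (0.083 and 0.056), and against haloperidol without replicate 2 of either group (0.070 and 0.067). Without haloperidol replicate 2, 4 were called lower against haloperidol, and Tnc, a matrix protein of progenitors, was among those set by that library (9.55 there and 7.29 to 7.91 in the other 8 samples).

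Targets of the stress factor ATF4 were set by a single library. Of 24 tested, 5 were called higher and 0 lower against vehicle, and 4 higher and 0 lower against haloperidol. The mean log2 value over the 24 genes was 8.94, 9.43 and 8.78 in the trichostatin A samples, 8.85, 8.86 and 8.87 in the vehicle samples and 8.91, 8.95 and 8.81 in the haloperidol samples. Replicate 2 of trichostatin A was the highest of the 9 samples in 22 of the 24 genes, and the other treated samples overlapped the controls. Without it, 0 members were called higher and 2 lower against vehicle, and 0 higher and 1 lower against haloperidol. Without replicate 3 there were 12 and 9 higher. Vehicle replicate 1 or 2 left out gave 1 against vehicle, haloperidol replicate 1 left out gave 1 and replicate 3 gave 0 against haloperidol. Cth, which makes cysteine, was at 5.78, 6.72 and 5.73 against 5.43 to 5.68 in the controls. Trib3, a pseudokinase induced by stress, was at 7.19, 8.51 and 6.98 against 6.83 to 7.23. The difference of Trib3 from vehicle was 0.61 with that replicate and 0.11 without it (adjusted p = 0.046 and 0.74).

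Lysosomal genes were called higher against vehicle in 8 of 25 cases and lower in 0, and against haloperidol in 3 and 0. The background was 6.41% and 5.85% higher. Ctsl, the protease cathepsin L, was at 12.70, 12.67 and 12.52 with trichostatin A, 12.22, 12.21 and 12.20 with vehicle, and 12.30, 12.32 and 12.23 with haloperidol. It rose by 0.42 ± 0.06 (adjusted p = 1.7e-05) and 0.35 ± 0.06 (adjusted p = 0.00026). Tpp1, a lysosomal peptidase, rose by 0.24 ± 0.07 and 0.21 ± 0.07 (adjusted p = 0.016 and 0.043). Among the others, Ctsa, Ctsb, Ctsz, Glb1 and Mcoln1 were called against vehicle only, at 0.16 to 0.21. Without vehicle replicate 1, 2 lysosomal genes were called against vehicle, without trichostatin A replicate 2 there were 3, without vehicle replicate 2 or trichostatin A replicate 1 there were 4, and without trichostatin A replicate 3 there were 5. Against haloperidol, 1 was called without trichostatin A replicate 1 or 2 or haloperidol replicate 1 or 3, and 2 without haloperidol replicate 2. Ctsl kept its call in every case, and that of Tpp1 was lost against vehicle without trichostatin A replicate 2 (adjusted p = 0.071) or vehicle replicate 1 (0.061), and against haloperidol without any treated sample or without haloperidol replicate 1 or 3 (0.061 to 0.17).

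In further groups, most members were not called. The shares of all tested genes were 6.41% higher and 6.68% lower against vehicle, and 5.85% and 5.27% against haloperidol. Of 23 sterol synthesis genes, 2 were called lower against vehicle and 3 against haloperidol and 0 higher, with medians of -0.17 and -0.14, and Hsd17b7, an enzyme of cholesterol synthesis, changed by -0.31 and -0.36. Of 27 interferon-stimulated genes, 1 was called higher and 2 lower against vehicle, and 1 higher and 1 lower against haloperidol, though the medians were -0.34 and -0.28. Ifit3, an antiviral effector, was at 10.46, 10.42 and 10.42 with trichostatin A against 10.83 to 11.14 in the controls, a difference of -0.55 ± 0.18 from vehicle (adjusted p = 0.037) that was lost when any of the 3 treated samples was left out (adjusted p = 0.079 to 0.10). Ifi27 rose by 0.41 and 0.34. Of 18 clock genes, 1 was called higher and 3 lower against vehicle, and 2 higher and 2 lower against haloperidol. Per1, a core repressor of the clock, was called lower in both comparisons (8.0, 8.03 and 8.10 against 8.31 to 8.44) and Nr1d2 higher (0.23 and 0.19). Of 16 cytosolic heat shock genes, 2 were called higher and 2 lower against vehicle, and 1 higher and 2 lower against haloperidol. Hspb8 rose by 0.29 and 0.35, while Hspa1b changed by -0.34 and -0.35 and Hsph1 by -0.18 and -0.20. Of 25 immediate-early genes, 1 was called higher and 2 lower against vehicle, and 1 higher and 3 lower against haloperidol. Fosl2, a partner of Jun proteins, changed by -0.32 ± 0.05 and -0.27 ± 0.05, and Egr2, a zinc finger factor, was also called lower in both. Per1 and Fosl2 kept both calls when any single library was left out. Of the others, Hsd17b7, Ifi27, Nr1d2, Hspb8, Hspa1b, Hsph1 and Egr2 each lost at least 1 call without single libraries, with adjusted p of 0.053 to 0.25.

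No member was called in either comparison among 18 glycolysis genes, 16 chaperones of the endoplasmic reticulum, 24 cytosolic ribosomal protein genes or 5 ion channel and receptor genes. At an adjusted p under 0.05 with limma these counts were 0. The ribosomal protein genes had medians of 0.09 and 0.14 and were positive in 23 and 24 of 24 cases, and summed levels of 17.12 to 17.19 with trichostatin A, 16.91 to 17.24 with vehicle and 16.94 to 17.14 with haloperidol (log2 of the sum). Htt, the gene of huntingtin, was at 8.0, 7.88 and 8.09 with trichostatin A, 8.10, 8.10 and 7.92 with vehicle, and 7.99, 8.14 and 8.04 with haloperidol, with overlapping groups (difference from vehicle -0.05 ± 0.08, adjusted p = 0.72).

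**Figure D4:**
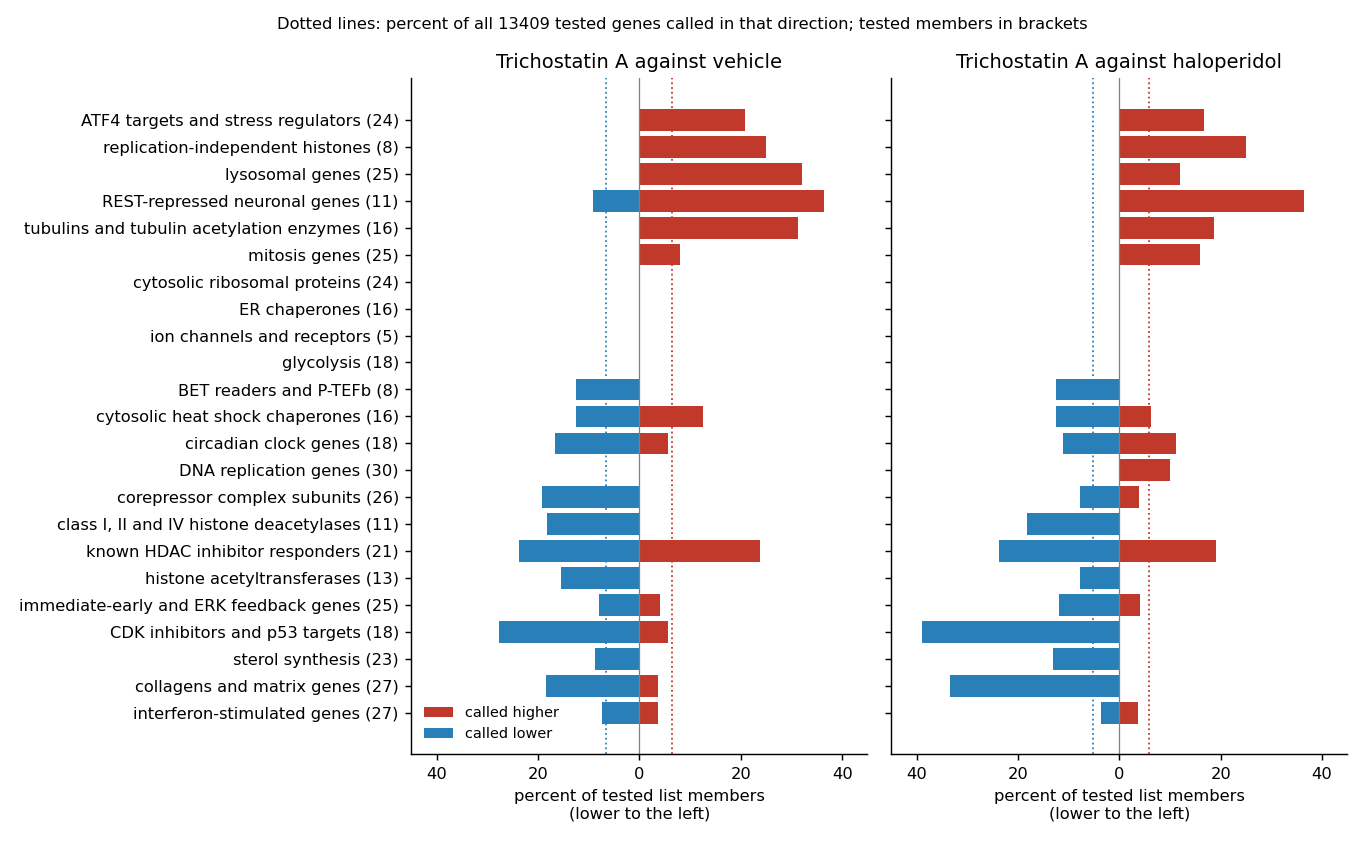
Percent of the tested members of each gene list that were called higher (red, to the right) or lower (blue, to the left) with trichostatin A, against vehicle (left panel) and against haloperidol (right panel), with lists ordered by their median log2 fold change against vehicle. Dotted lines give the share of all 13409 tested genes, 6.41% and 6.68% on the left and 5.85% and 5.27% on the right; the bars of the p53 and matrix lists extend left and those of the neuronal, tubulin, lysosomal and ATF4 lists right.

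Markers of other cell types moved in single genes. Of 6 fibroblast and pericyte markers tested, Dcn, a matrix proteoglycan, was at 7.94, 7.64 and 7.86 with trichostatin A and 7.22 to 7.40 in the controls, while Pdgfrb, a growth factor receptor, was at 10.41, 10.48 and 10.56 against 10.73 to 10.88 in the controls. Both were called against each control, but not against vehicle without trichostatin A replicate 1. The summed level of this list was 15.03 to 15.30 with trichostatin A, 15.23 to 15.42 with vehicle and 15.35 to 15.42 with haloperidol. Of 9 progenitor markers tested, the RNA-binding protein gene Msi1 was called higher in both comparisons (4.56, 4.59 and 4.61 against 4.19 to 4.44). The call of Msi1 against haloperidol was lost without any of the treated samples and without haloperidol replicate 1 or 3. Dlx1, a homeobox factor of striatal progenitors, was called lower against vehicle (-0.21 ± 0.07, adjusted p = 0.044) and was at -0.19 against haloperidol (adjusted p = 0.090). Notch1, Sox2 and Vim were called lower against haloperidol. Against vehicle Notch1 was at -0.29 (adjusted p = 0.059), Vim at -0.21 (0.055) and Sox2 at -0.09 (0.80). Sox2 was at 5.92 in haloperidol replicate 2 and at 4.38 to 4.99 in the other 8 samples. Pdgfra, a receptor of oligodendrocyte progenitors and mesenchymal cells, was at 9.32, 9.16 and 9.29 with trichostatin A against 8.91 to 9.13 in the controls and was called higher in both comparisons (0.22 and 0.27), though not against vehicle without trichostatin A replicate 1 or 3 or vehicle replicate 3. Kdr, a receptor of endothelial cells, was at 3.29, 3.24 and 3.21 against 2.95 to 3.10 and was also called higher in both (0.21 and 0.22). Its calls were lost without trichostatin A replicate 1, against vehicle also without vehicle replicate 1 or 2, and against haloperidol also without haloperidol replicate 3. Of 5 striatal projection neuron markers tested, Rgs9 was called higher against haloperidol (0.17, adjusted p = 0.014) and was at 0.13 against vehicle (adjusted p = 0.070). Of 3 neuron markers tested, Tubb3 was called higher in both, as given above, and no tested astrocyte or microglial marker was called. The part of these changes in the results above was not tested. In cultured cells a smaller share of cells of a type and less RNA per cell cannot be told apart.

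Sodium butyrate, which inhibits class I histone deacetylases, was given at another dose and collected in other slots, so its values are set beside those of trichostatin A. Against vehicle, 5023 genes were called with butyrate (37.5%). Pla2g7 was higher by 1.15 ± 0.10 with butyrate, L1cam by 1.03 ± 0.17, Uchl1 by 0.87 ± 0.10 and Clu by 1.70 ± 0.08. Cdkn1a was lower by -0.46 ± 0.11 (adjusted p = 0.0013) and Svep1 by -0.79 ± 0.11. Lrp11 and Aqp1 had the opposite sign to trichostatin A: Lrp11 was at -0.44 ± 0.08 (adjusted p = 3.6e-05) and Aqp1 at 0.79 ± 0.15 (adjusted p = 7.2e-05). Angptl4 also differed in sign, at 0.10 with butyrate and -0.56 with trichostatin A. These differences share the vehicle samples with those of trichostatin A. The comparison of trichostatin A with haloperidol shares no sample with that of butyrate with vehicle. Of the 1492 genes called in the former, 1287 (86.3%) had the same direction in the latter, as against 8968 of all 13409 genes (66.9%). The share was 90.2% for genes called higher and 81.9% for genes called lower, and it was 83% of 1255 genes when fingolimod phosphate was the control, as against 61.5% of all genes.

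**Figure D5:**
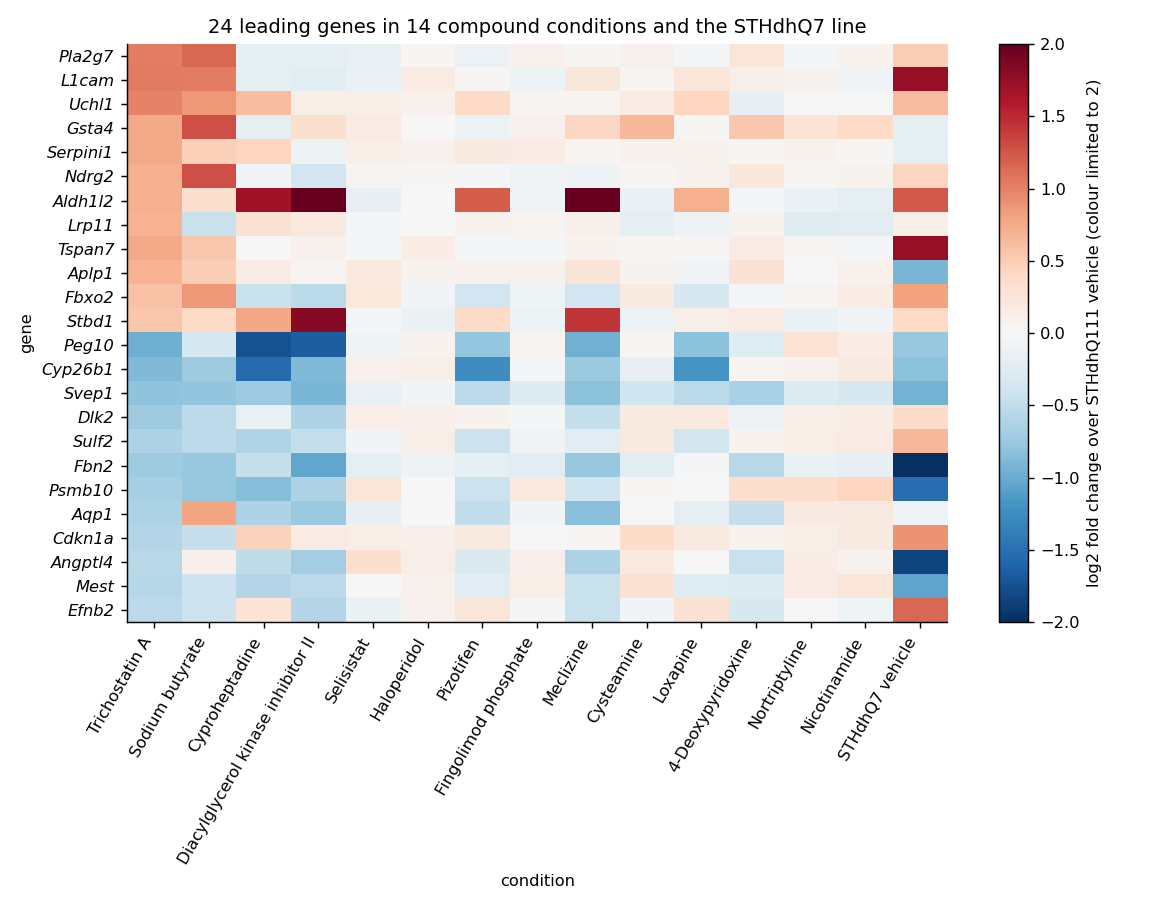
Log2 fold change over STHdhQ111 vehicle (colour, red higher and blue lower, limited to 2) of the 24 leading genes (rows) in 14 compound conditions and in STHdhQ7 vehicle cells (columns). The rises of Pla2g7 and L1cam stand out in the trichostatin A and sodium butyrate columns among compounds, while Aldh1l2, Stbd1, Peg10 and Cyp26b1 also change with other compounds. Lrp11, Aqp1 and, with a small value for sodium butyrate, Angptl4 have opposite signs in the first pair of columns.

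Across the other 12 compounds, the condition means of Pla2g7 ranged from 5.49 to 5.92 and those of L1cam from 6.64 to 7.09, below all 3 treated samples in each case. For Peg10 they ranged from 10.49 to 12.50 and for Cyp26b1 from 6.72 to 8.45, which includes the trichostatin A means. Uchl1, L1cam, Serpini1, Lrp11, Tspan7 and Aplp1 had their highest mean of the 15 STHdhQ111 conditions with trichostatin A, and Dlk2, Sulf2 and Cdkn1a their lowest. Some of these ranks rest on small gaps. L1cam was above vehicle by 1.04 with trichostatin A and by 1.03 with butyrate. Sulf2 was at -0.62 with trichostatin A and at -0.60 with cyproheptadine. Trichostatin A was not tested against these compounds.

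The direction relative to the wild type line depended on the control. Between STHdhQ7 and STHdhQ111 vehicle cells 7483 genes were called (55.8%). Of the 1492 genes called against haloperidol, 735 (49.3%) had the same direction in STHdhQ7 over STHdhQ111 vehicle cells, as against 49.8% of all genes. Without haloperidol replicate 2 this was 604 of 1033 (58.5%, as against 53% of all genes), and with fingolimod phosphate as the control 810 of 1255 (64.5%, as against 54.5%). Among leading genes, Fbn2 was lower in STHdhQ7 cells by -2.08 and Psmb10 by -1.53, the direction of trichostatin A, whereas Efnb2 and Cdkn1a were higher by 1.14 and 0.89, the opposite direction.

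The genes that moved also differed in length, which the choice of genes did not use directly, and in level. The level was taken from the vehicle and haloperidol samples that both comparisons subtract, so it is not independent of the choice. The 530 genes called lower against both controls had a median length of 48 kb from start to end of the annotated gene, the 592 called higher 26.8 kb, and all tested genes 23.5 kb. Of the genes called lower, 26.6% were longer than 100 kb, of those called higher 14%, and of all tested genes 13.1%. The median level in the controls per kb of exon was 7.06 (log2) for genes called lower, 4.16 for genes called higher and 5.80 for all. The part of level in these differences was not tested. With a minimum mean of 6, genes called higher made up 36.4% of the calls against vehicle in place of 48.9%.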

How the data were processed

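RNA-Seq of 48 samples was used, 3 in each of 16 conditions, with groups, doses and collection slots taken from the labels. The authors trimmed reads with Trimmomatic 0.36, quantified them with RSEM on the GRCm38 transcriptome, and deposited 1 table of normalized log2 values per gene and sample. How they were transformed is not given in the sources used here. Values ran from -2.34 to 18.62, and summed linear values differed between samples by at most 1.11 times. The authors' DESeq2 tests need counts and were not repeated.

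With limma 3.58.1 in R 4.3.3, 16 conditions and the collection day were fitted per gene over all samples (30 residual degrees of freedom, trend, two-sided, Benjamini-Hochberg). Genes with a symbol and a mean of at least 1 entered. The fit was also run on simulated data with planted changes and independent noise. That simulation held no day effect and no deviating library, so it cannot speak to these, and its outcome is not given here. Named genes were the 12 largest rises and falls called against both controls with a mean of at least 6 and no overlap, deacetylases, known responders, Htt, and called genes with the largest change of each list. Other genes named were chosen after their values were seen. The comparison, the 23 pathway lists and the 8 marker lists were chosen with earlier results of these data known. Replicate numbers equal collection days in the labels for the groups compared, so their samples of a number are paired by day. Their deviations correlated at -0.21 to 0.0963 across 9 pairs. Lengths come from GENCODE annotation of GRCm38. Promoter properties of the gene groups were computed but not tested, and they are not reported here. An entry was found for 77.7% of the genes called higher, 80.2% of those called lower and 80% of all tested genes. Alternatives were other filters, blocks, sample sets, scalings and moderation, other controls, and leaving out each replicate. Figures used matplotlib 3.10.9 in Python 3.11.15. Some genes of the lists are counted but not reported here by name.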

Additional observations from a re-analysis of the deposited data

How the results depend on the processing

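With the collection day as the block, 1755, 1492 and 1122 genes were called against vehicle, against haloperidol and against both. With no replicate block (no collection day term) there were 1941, 1727 and 1257, and with the replicate number as the block 1773, 1518 and 1136; pairing changed no count by over 1.5 times. Haloperidol against vehicle gave 0 in all of these, 1 without a filter on low values, and 4 with only the 9 samples of the 3 groups in the fit. Leaving out single replicates gave 744 to 1726 calls against vehicle, 584 to 1521 against haloperidol, 417 to 1061 against both (the fewest without trichostatin A replicate 1), and 0 to 34 for haloperidol against vehicle, the 34 without haloperidol replicate 1 and 8 without replicate 3. Without haloperidol replicate 3, 961 genes were called against haloperidol. With fingolimod phosphate as the control there were 1255 calls, 59.5% of them higher, and with the mean of both controls 2373. A minimum mean of 6 left 1382, 1092 and 852 calls, of which 36.4%, 41.2% and 38.8% were higher, as against 48.9%, 52.6% and 52.8%. Shifting samples to a common median gave 1758, 1524 and 1131. No named gene changed its direction past the threshold under these alternatives. Of 934 values of the 24 leading genes, 933 stayed on their side of the threshold, and the exception was Stbd1 against vehicle without trichostatin A replicate 2. These genes were chosen by their calls and large changes in the same samples, so this count is largely set by the choice. Some alternatives also leave the estimate as it was, such as leaving out a haloperidol sample in the comparison with vehicle. Of 3652 values of all named genes, 228 lost the call and 20 gained it. Without haloperidol replicate 1 or 3, 44.9% or 44.6% of the genes called against haloperidol had the direction of STHdhQ7 over STHdhQ111 vehicle cells, an alternative chosen after seeing the data. The depth of the samples is unknown, so no limit from counting can be given.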
